A study of Mus musculus with 16 samples.

Results

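Kat8 and subunits of the 2 protein complexes built around it were followed in RNA of mouse spermatozoa across 16 libraries, of which 8 came from mice fed a high-fat diet (HFD) and 8 from mice fed a control diet (CD). Kat8 was chosen by its small p-value when the diets were compared, rank 11 of 13149, and its diet difference is therefore described below without a test. The other 9 genes were taken as its partners: Msl1, Msl2 and Msl3 of the MSL complex, and Kansl1, Kansl2, Kansl3, Mcrs1, Phf20 and Wdr5 of the NSL complex. These 10 genes are 10 of the 24062 gene rows of the deposited count table, and 10 of the 13149 genes that passed the filter on low counts.

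HFD males ate a calorie-dense, high-fat version of D12492 (E15741-34) and CD males the control diet to D12492, in both cases from 3 weeks of age and for 9 weeks. The labels name no strain and no other treatment, and 16 males are described, 8 for each diet, so each library was taken as 1 animal. Motile sperm were isolated and sonicated, and 2 ng of RNA was amplified to cDNA before sequencing, which copies few molecules many times. P-values measure the spread between these libraries.

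KAT8, also called MOF, is the main acetyltransferase of lysine 16 of histone H4 (H4K16), a mark that loosens the packing of nucleosomes. In the MSL complex it is targeted mostly to H4K16 on chromatin, and in Drosophila the homologous complex raises the output of the male X chromosome. In the NSL complex it acts at promoters of broadly expressed genes. In the testis, histone H4 becomes heavily acetylated in elongating spermatids before histones give way to transition proteins and protamines.

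Gene counts per library ran from 1882555 to 5153818 in HFD and from 3172721 to 7783981 in CD. Levels are CPM, gene counts set to a common library size with edgeR's trimmed mean of M-values (TMM) factors. Libraries HFD 4 and HFD 8 stood apart from the other 14. The 28 late spermatid markers had a sum of 33121 CPM in HFD 4 and of 65532 CPM in HFD 8. The other 6 HFD libraries had 3714 to 11876 CPM, and CD libraries 2952 to 14736 CPM. Of these markers, the protamines Prm1 and Prm2 had 9896 and 7660 CPM in HFD 8, above the other 14. In HFD 4 they had 956 and 1358 CPM, within the range of the other 14 (up to 1454 and 1765 CPM). The 13 tested meiotic markers had sums of 5772 CPM in HFD 4 and of 3873 CPM in HFD 8, with 1209 CPM the highest value elsewhere, and the 21 tested epididymal markers to 19094 and 13943 CPM, against 45411 CPM or more elsewhere. In these 2 libraries 23 of 28 late spermatid and 12 of 13 meiotic markers lay above the range of the other 14, and 13 of 21 epididymal markers below it. The epididymal marker Cst8 went the other way, with 186 and 376 CPM against at most 52.7 CPM. Defb20 had 363 CPM in HFD 8, above the other 14 (at most 219 CPM), and 1.19 CPM in HFD 4. Gpx5 and Spag11b had 1871 and 581 CPM in HFD 8, above the medians of the other 14 (248 and 11.9 CPM) and within their range. In HFD 4 Gpx5 and Spag11b had 14.9 and 0.595 CPM. Leukocyte markers added up to 1216 CPM in HFD 4 and to 1706 CPM in HFD 8, against 292 to 1107 CPM elsewhere. Stromal markers added up to 1605 and 1371 CPM in these libraries, against 378 to 1119 CPM elsewhere. The 4 tested Sertoli markers added up to 367 and 285 CPM, against 966 to 11267 CPM elsewhere. Clu, which other cells also express, averaged 4194 CPM over all libraries. Amh and Fshr had 0 reads, while Sox9 had 1802, Wt1 516, Amhr2 202, Rhox5 131 and Gata4 32 over all libraries. In HFD 4 and HFD 8, 76.05% and 74.96% of reads were classed as no feature, against 58.0% to 67.9% elsewhere. This class leaves out reads that did not align uniquely, which were counted in no gene either. Reads counted in genes were 8.02% and 9.16%, against 10.3% to 20.1% elsewhere. Of all 13149 genes, 21.8% had both libraries above the range of the other 14, and 22.6% had both below it. Diet differences are given for all libraries and again without these 2. In bulk RNA, fewer cells of a type and less RNA per cell cannot be told apart.

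Kat8 lies on chromosome 7 (127912516 to 127925837 on GRCm38, plus strand) and encodes the enzyme of both complexes. It had 28.5 CPM in the lowest HFD library, a median of 39.0 and 147 CPM in the highest, against 21.4, 26.3 and 33.7 CPM in CD. HFD 4 held 147 CPM and HFD 8 87.9 CPM, followed by 61.9 CPM in HFD 3 and 40.9 CPM in HFD 1. The diets overlapped: 6 of 8 HFD libraries lay above the highest CD library, while HFD 2 (33.6 CPM) and HFD 7 (28.5 CPM) did not. Kat8 averaged 58.9 CPM (SD 40.6, n = 8) in HFD libraries and 26.5 CPM (SD 4.33, n = 8) in CD libraries, a log2 fold change of 1.14 ± 0.31 (SE). Without HFD 4 and HFD 8 the HFD mean was 39.4 CPM ± 11.8 (SD, n = 6) and the log2 fold change 0.58 ± 0.19 (SE), and 4 of the 6 remaining HFD libraries lay above the CD range. Depth behind these values was 70 to 252 reads of Kat8 in a library.

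The sequence upstream of Kat8 is printed beside those of Msl1, which was also high in HFD 4 and HFD 8, and of Phf20 and Wdr5, which were low there, so that promoters of genes with opposite patterns can be set side by side. Each is the 250 bases before the gene's start in RefSeq (GRCm38.p6), 5′ to 3′ on the gene's strand: chr7:127912267-127912516, chr11:98795266-98795515, chr2:156196397-156196646 and chr2:27514897-27515146, all on the plus strand. Capitals mark matches on either strand to the GC box GGGCGG, to the box CCAAT found in many promoters, or to the letters TGACG, the core of the cAMP response element (CRE).
Kat8: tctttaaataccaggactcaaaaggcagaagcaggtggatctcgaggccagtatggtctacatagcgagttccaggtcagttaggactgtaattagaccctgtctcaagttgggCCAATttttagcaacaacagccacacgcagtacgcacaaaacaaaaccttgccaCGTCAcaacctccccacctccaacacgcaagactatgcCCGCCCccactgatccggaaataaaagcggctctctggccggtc
Msl1: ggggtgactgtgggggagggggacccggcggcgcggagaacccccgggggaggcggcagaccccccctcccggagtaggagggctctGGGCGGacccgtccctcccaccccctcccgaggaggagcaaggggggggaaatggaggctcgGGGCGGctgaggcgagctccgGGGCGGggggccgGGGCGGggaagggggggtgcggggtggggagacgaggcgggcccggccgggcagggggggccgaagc
Phf20: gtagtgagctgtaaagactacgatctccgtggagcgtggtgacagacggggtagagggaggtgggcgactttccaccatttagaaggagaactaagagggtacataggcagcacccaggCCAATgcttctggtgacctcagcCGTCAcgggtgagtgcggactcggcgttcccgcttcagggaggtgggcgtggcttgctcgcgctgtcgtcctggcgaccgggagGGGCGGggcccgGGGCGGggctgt
Wdr5: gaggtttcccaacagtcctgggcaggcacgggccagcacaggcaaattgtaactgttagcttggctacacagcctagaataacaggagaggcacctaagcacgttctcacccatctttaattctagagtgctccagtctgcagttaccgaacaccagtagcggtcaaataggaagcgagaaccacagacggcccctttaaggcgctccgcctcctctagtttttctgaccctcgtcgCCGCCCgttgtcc

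RefSeq gave an upstream window for 10 of the 10 genes, and the first listed was used where a gene had several. Kat8 had 51.2% G and C and 10 CpG dinucleotides, the lowest of the 10 genes in both, beside medians of 52.0% and 6 over 27025 genes. The other 9 ran from 54.4% in Wdr5 to 80.4% in Msl1, with 12 to 30 CpG. GGGCGG occurred in 9 of the 10, all but Kansl3, and in 32.9% of all windows, without correction for base composition. Msl1 held 4 copies, 67 to 163 bases before the start. CCAAT occurred in Kat8, Kansl1, Kansl2 and Phf20, and in 34.5% of all windows. CGGAAG, the ETS motif, occurred in Kansl1, where it overlaps a GC box, in Kansl3 and in Mcrs1, and in 13.8% of all windows. The full CRE (TGACGTCA), the Kaiso palindrome, the NRF1 palindrome, the YY1 motif (AAGATGGC) and the TATA box (TATAAA) occurred in 0 of the 10, and in 1.62%, 0.407%, 0.781%, 1.59% and 12.97% of all windows. TGACG, looked for after the sequences were seen, occurred in Kat8, Kansl1 and Phf20, and in 17.9% of all windows. Of these genes Kat8 was high in HFD 4 and HFD 8, while Kansl1 and Phf20 were low there. Msl1, high in both libraries, had no TGACG in its window. CREM, a CRE-binding factor, drives many spermatid genes. A match describes letters and is not a binding site.

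The MSL genes differed from each other in HFD 4 and HFD 8. Msl1 encodes the scaffold of the complex, which joins KAT8 to MSL3 and MSL2. It lies on chromosome 11 (98795516 to 98807859, plus strand). Msl1 had 116 CPM, a median of 192 and 543 CPM as lowest, median and highest HFD values, against 164, 186 and 216 CPM in CD. HFD 4 with 543 CPM and HFD 8 with 440 CPM stood above every other library, and HFD 7 with 116 CPM and HFD 3 with 159 CPM stood below every CD library. The 6 HFD libraries without those 2 averaged 174 CPM ± 31.7 (SD, n = 6), against 189 ± 16.7 in CD (SD, n = 8). The log2 fold change was 0.42 ± 0.27 (SE) over all libraries, with an edgeR adjusted p of 0.598, and turned to -0.11 ± 0.13 (SE) without HFD 4 and HFD 8 (edgeR adjusted p = 0.9997).

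Msl1 overlaps 2 annotated genes that are also in the count table. Gm12359, an antisense transcript, shares 10153 bases with it and had 88.7 CPM in HFD 4 and 35.6 CPM in HFD 8, against 14.7 to 26.3 CPM in the other 14. Casc3, a part of the exon junction complex, follows on the same strand, shares 2955 bases and had 24.4 CPM in HFD 4 and 15.7 CPM in HFD 8, against 24.1 to 46.1 CPM. Whether counting used strand is not stated in the labels or notes, and so reads of Msl1 and of Gm12359 cannot be told apart where they overlap.

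Msl2 and Msl3 did not share the high values of Msl1. Msl2, a RING-finger ubiquitin ligase (chromosome 9, 101074101 to 101104800, plus strand), had 52.3, 62.1 and 94.5 CPM as lowest, median and highest HFD values, against 41.7, 66.9 and 82.5 CPM in CD. HFD 4 (55.9 CPM) and HFD 8 (52.3 CPM) lay within the range of the other 14 libraries. Msl3, a chromodomain protein encoded on the X chromosome (168654117 to 168673898, minus strand), had 14.3, 27.3 and 32.7 CPM in HFD, against 22.2, 33.0 and 49.0 CPM in CD. Its 3 lowest libraries were HFD 4, HFD 5 and HFD 6, and the ranges of the diets overlapped. The log2 fold changes were 0.086 ± 0.19 (SE) for Msl2 and -0.38 ± 0.22 (SE) for Msl3, with edgeR adjusted p of 0.886 and 0.537. Without HFD 4 and HFD 8 they were 0.19 ± 0.18 (SE) for Msl2 and -0.28 ± 0.21 (SE) for Msl3.

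**Figure D1:**
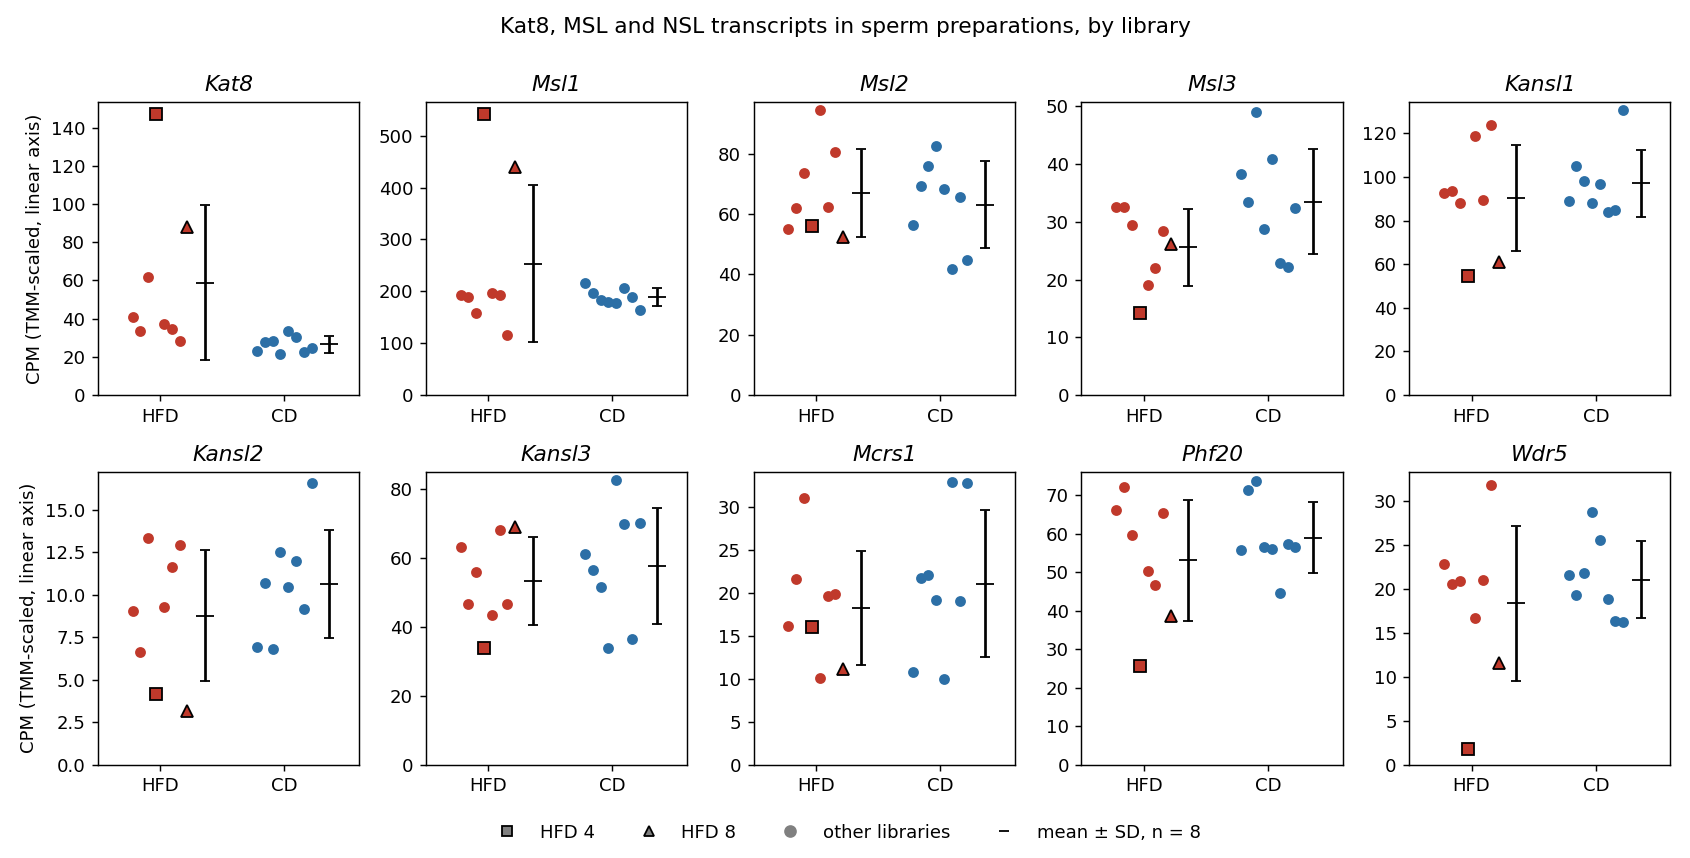
CPM (TMM-scaled, vertical axis, linear) of the 10 genes in each library of HFD (left, red) and CD (right, blue), with the mean and SD of 8 libraries beside the points; the square is HFD 4 and the triangle HFD 8. Kat8 and Msl1 have these 2 libraries at the top, at 147 and 87.9 CPM and at 543 and 440 CPM, and Kansl1, Kansl2, Phf20 and Wdr5 have them at the bottom.

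The NSL genes had no high values in HFD 4 and HFD 8 of the kind seen for Kat8 and Msl1. Kansl1 encodes the scaffold that holds the complex together (chromosome 11, 104333229 to 104468861, minus strand). It had 54.8, 91.1 and 124 CPM as lowest, median and highest HFD values, against 84.0, 92.8 and 131 CPM in CD. HFD 4 (54.8 CPM) and HFD 8 (61.0 CPM) were its lowest libraries, and the other 14 started at 84.0 CPM. Kansl2 (chromosome 15, 98517658 to 98534264, minus strand) was the least abundant of the 10 genes, with 3.14, 9.16 and 13.3 CPM in HFD, against 6.80, 10.6 and 16.6 CPM in CD. It had 7 reads in HFD 4 and 9 reads in HFD 8, the lowest CPM of the 16 libraries.

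Wdr5 encodes a WD40-repeat protein that the NSL complex shares with the H3K4 methyltransferases (chromosome 2, 27515157 to 27536535, plus strand). It had 1.79, 20.7 and 31.8 CPM in HFD, against 16.2, 20.4 and 28.7 CPM in CD. HFD 4 held 3 reads of Wdr5, 1.79 CPM with a 95% Poisson interval of 0.368 to 5.22 CPM, which is 0.0854 times the median of the other 14 libraries (0.0176 to 0.250 times). HFD 8 held 33 reads and 11.5 CPM (7.92 to 16.2 CPM by counting). These intervals cover counting error only. Phf20, a reader of methylated lysines (chromosome 2, 156196466 to 156309952, plus strand), had 25.6, 54.9 and 72.1 CPM in HFD, against 44.7, 56.5 and 73.7 CPM in CD, and HFD 4 (25.6 CPM) and HFD 8 (38.7 CPM) were again its lowest libraries.

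Kansl3 and Mcrs1 did not have both libraries outside the range of the other 14. Kansl3, another NSL subunit (chromosome 1, 36335730 to 36369181, minus strand), had 33.9, 51.2 and 69.0 CPM in HFD, against 33.9, 58.7 and 82.5 CPM in CD. HFD 8 was its highest HFD library with 69.0 CPM, and HFD 4 its lowest with 33.9 CPM. Mcrs1, which encodes a forkhead-associated domain protein with further roles at spindle microtubules (chromosome 15, 99242817 to 99251961, minus strand), had 10.1, 17.9 and 31.1 CPM in HFD, against 9.96, 20.5 and 33.0 CPM in CD. Mcrs1 had 16.1 CPM in HFD 4 and 11.2 CPM in HFD 8, both under the median of 19.8 CPM of the other 14 libraries and within their range. Mcrs1 overlaps Kcnh3 by 1 base and 1700120C14Rik, on the other strand, by 2451 bases.

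**Figure D2:**
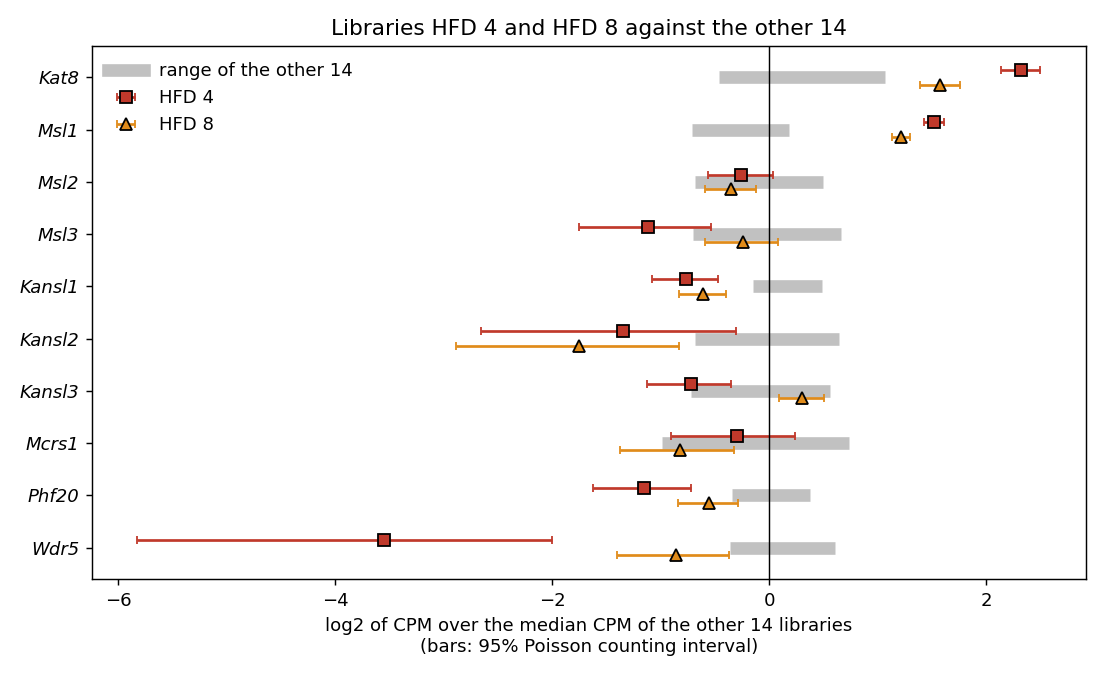
CPM of each gene in HFD 4 (square) and HFD 8 (triangle) as log2 of its ratio to the median of the other 14 libraries (horizontal axis), with 95% Poisson counting intervals; grey bars span the other 14 libraries. Both symbols lie right of the grey bar for Kat8 and Msl1 and left of it for Kansl1, Kansl2, Phf20 and Wdr5, with Wdr5 in HFD 4 farthest left on 3 reads.

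Set against the median of the other 14 libraries, Kat8 was 4.98-fold higher in HFD 4 (95% Poisson interval 4.38 to 5.65) and 2.98-fold higher in HFD 8 (2.62 to 3.37). Msl1 was 2.86-fold (2.68 to 3.06) and 2.32-fold (2.20 to 2.45) higher. Of the 9 partners, 1 had both libraries above the range of the other 14 and 4 had both below, where 21.8% and 22.6% of all genes did. These shares describe 2 libraries and were not tested.

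Ratios of reads within a library do not depend on scaling. Per 100 reads of the 6 NSL genes together, Kat8 had 9.47 reads in the lowest HFD library, a median of 15.0 and 108 in the highest, against 7.65, 9.93 and 12.0 reads in CD. HFD 4 held 108 and HFD 8 45.2, and 7 of the 8 HFD libraries lay above the highest CD library, all but HFD 7. Without HFD 4 and HFD 8 the HFD mean was 14.8 ± 4.51 (SD, n = 6), against 9.98 ± 1.40 in CD (SD, n = 8). As Kat8 was chosen for its diet difference, this is a description. Msl1 had 398 reads per 100 NSL reads in HFD 4 and 226 in HFD 8, and 38.5 to 87.9 in the other 14 libraries. Msl2 and Msl3 together had 51.5 in HFD 4 and 40.3 in HFD 8, against 23.9 to 46.5 elsewhere. HFD 4 was thus above the range of the other 14 here too, by less than Msl1 or Kat8. All these ratios also rise where NSL reads fall, and 4 of the 6 NSL genes were below the other 14 in both libraries. In CPM, Msl2 and Msl3 were not high in HFD 4, at 0.84 and 0.46 times the median of the other 14.

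**Figure D3:**
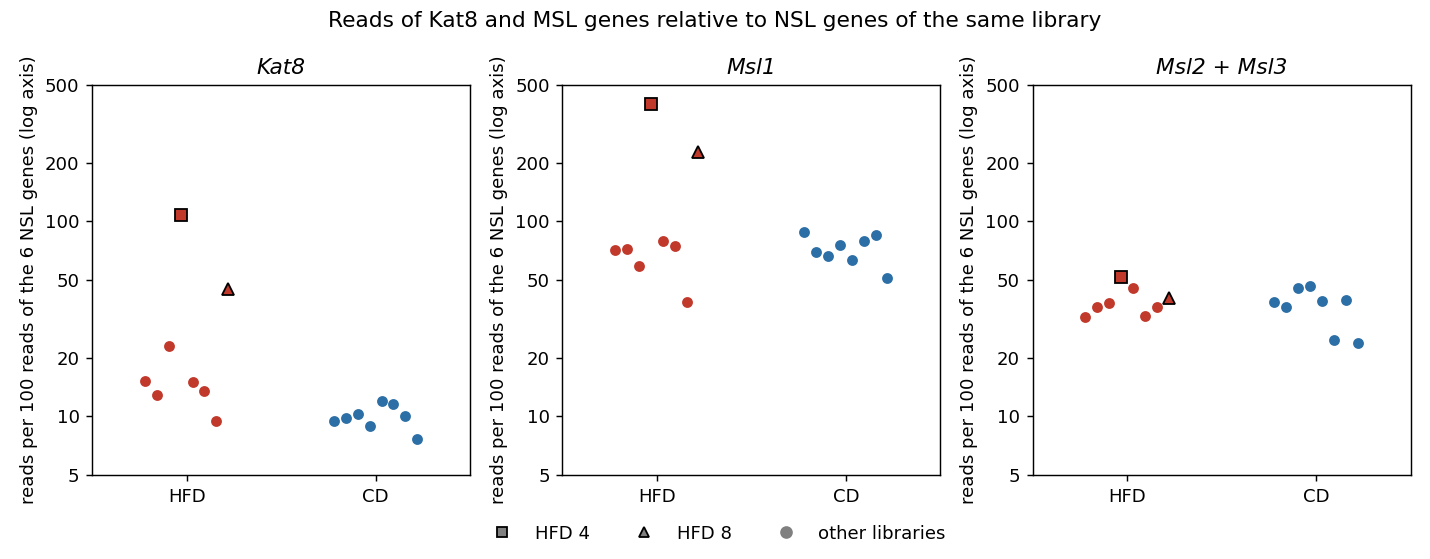
Reads of Kat8, of Msl1 and of Msl2 with Msl3 per 100 reads of the 6 NSL genes in the same library (vertical axis, log scale), HFD left and CD right; the square is HFD 4 and the triangle HFD 8. Kat8 ranges from 9.47 to 108 in HFD and from 7.65 to 12.0 in CD, while Msl2 with Msl3 ranges from 32.4 to 51.5 in HFD and from 23.9 to 46.5 in CD.

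Diet was tested across all 13149 genes with edgeR's quasi-likelihood test, and 0 of the 9 partners passed an adjusted p of 0.05, where 0.0% of all genes did. At an unadjusted p under 0.05 there were 0 of the 9 partners and 1482 of all genes (11.3%; 10.2% higher and 1.1% lower in HFD). Without HFD 4 and HFD 8 there were again 0 of the 9, beside 2.17% of all genes. HFD and CD ranges were apart in 0 of the 10 genes, and in 0.00761% of all genes. DESeq2 called 1 gene, Apoh, which is no partner. The 6 NSL genes had negative log2 fold changes, from -0.10 ± 0.19 (SE) for Kansl1 to -0.27 ± 0.33 (SE) for Kansl2, with edgeR adjusted p from 0.781 to 0.865. Their median was -0.17, beside -0.0042 for all genes. Without HFD 4 and HFD 8 the median was 0.012, and Kansl1, Phf20 and Wdr5 turned to positive values of 0.070, 0.039 and 0.093, while Kansl2 had -0.014, Kansl3 -0.086 and Mcrs1 -0.082. Over the 9 partners 2 values were positive and 7 negative, and 49.6% of all genes were positive. The late spermatid and epididymal sums given above stood apart in the same 2 libraries; their part in these differences was not tested.

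**Figure D4:**
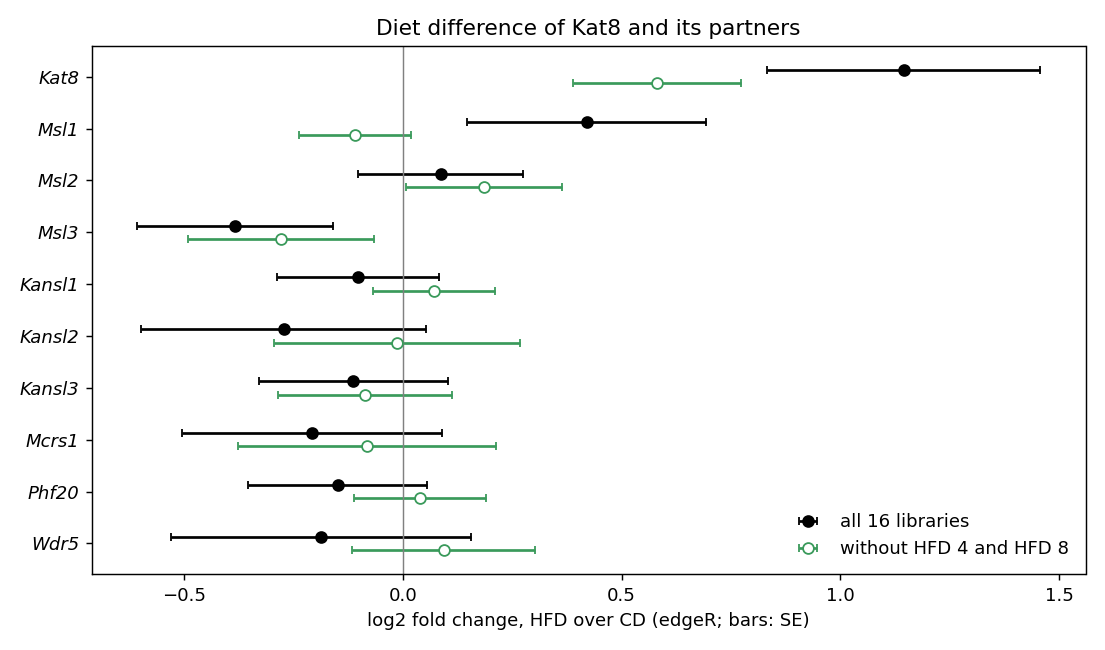
Log2 fold change of HFD over CD for each gene (edgeR, horizontal axis) with its SE, over all 16 libraries (filled) and without HFD 4 and HFD 8 (open). Kat8 moves from 1.14 to 0.58 and Msl1 from 0.42 to -0.11, and the other 8 genes lie between -0.38 and 0.19 in both.

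Levels were compared between genes per kilobase of exon, with exons merged from GENCODE M21. Msl1 was the highest of the 10, with 40.7 CPM per kb ± 20.1 (SD, n = 16), a median of 35.2, and lay above Kat8 in 16 of 16 libraries. Kat8 followed by its mean, 14.8 ± 11.3 CPM per kb, but by its median of 11.1 it lay below Kansl1 (13.2) and Msl2 (11.4), and it exceeded Kansl1 in 4 of 16 libraries. Kansl1 averaged 13.6 ± 2.89 CPM per kb, Msl2 11.6 ± 2.53, Msl3 10.3 ± 3.03 and Kansl3 8.23 ± 2.16. Mcrs1, Phf20 and Wdr5 were close together, at 5.61 ± 2.16, 5.61 ± 1.29 and 5.48 ± 1.91 CPM per kb, and Kansl2 was lowest with 2.56 ± 0.940. Every gene's range overlapped that of the next in this order. Among the 14 libraries without HFD 4 and HFD 8, Msl1 varied least, with a coefficient of variation of 13.4%, and Mcrs1 most, with 37.3%. Kat8 had 32.3%.

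Within those 14 libraries the 10 genes were set against the summed late spermatid markers, each on the log2 CPM scale, and 0 of 10 relations passed after Benjamini-Hochberg adjustment. Kansl3 came closest, with Pearson's r = 0.66 (permutation p = 0.0110, adjusted 0.110) and Spearman's rho = 0.62 (permutation p = 0.0198, adjusted 0.162). Its r was 0.73 without CD 2 and CD 8, the libraries farthest from the median, and was 0.82 within the 8 CD libraries and 0.07 within the 6 HFD libraries. It passed when HFD 5 was left out (r = 0.81, adjusted permutation p = 0.0089) or CD 2 (r = 0.75, adjusted permutation p = 0.0367), and with 13 meiotic markers in place of the spermatid markers (r = 0.77, adjusted permutation p = 0.0154). Phf20 went the other way, with r = -0.54 (permutation p = 0.0475, adjusted 0.238) and rho = -0.58 (permutation p = 0.0324, adjusted 0.162). Kat8 gave r = 0.30 (permutation p = 0.296, adjusted 0.592) and rho = 0.40 (permutation p = 0.161, adjusted 0.535), with r = 0.45 without CD 2 and CD 8, 0.51 within HFD and 0.49 within CD. Msl1, high in the 2 libraries left out here, gave r = 0.15 (permutation p = 0.639, adjusted 0.709) and rho = -0.07 (permutation p = 0.809, adjusted 1.0).

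Other genes had patterns nearer to that of Kat8 than its partners did. Over the 14 libraries the 5 genes with the highest Pearson's r of log2 CPM with Kat8 were Aven (r = 0.87, rho = 0.89), 4930406D18Rik (r = 0.82, rho = 0.87), Pfdn1 (r = 0.81, rho = 0.74), Rffl (r = 0.81, rho = 0.57) and Tmem243 (r = 0.79, rho = 0.75). Aven encodes an inhibitor of apoptosis, Pfdn1 a prefoldin subunit and Rffl a ubiquitin ligase. These are the top of 13148 comparisons and carry no test. Aven and 4930406D18Rik ranked 4 and 10 of 13149 by diet p, the comparison in which Kat8 ranked 11. Tmem243 ranked 90, Rffl 275 and Pfdn1 1339. The part of the diet difference in the likeness of these 5 genes to Kat8 was not tested. The values of r within each diet come from the same 14 libraries in which the 5 genes were picked. Within the 6 HFD libraries r was 0.82 for Aven, 0.89 for 4930406D18Rik, 0.90 for Pfdn1, 0.96 for Rffl and 0.95 for Tmem243. Within the 8 CD libraries r was 0.61 for Aven, 0.64 for 4930406D18Rik, 0.73 for Pfdn1, 0.68 for Rffl and 0.31 for Tmem243. Among the partners the closest to Kat8 was Kansl3, with r = 0.30 (rho = 0.29), and Msl1 had r = -0.12 (rho = -0.06).

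The genes next to Kat8 on chromosome 7 did not show its pattern in HFD 4 and HFD 8. Bckdk, which encodes a kinase of branched-chain amino acid breakdown and lies 2294 bases upstream on the same strand, had 2.98 CPM in HFD 4 and 8.02 CPM in HFD 8, below the 20.9 to 36.6 CPM of the other 14 libraries. Prss8, a membrane protease gene that shares 122 bases with the end of Kat8 on the other strand, had 19.6 CPM in HFD 4 and 14.6 CPM in HFD 8, against 17.7 to 60.9 CPM elsewhere. Prss36, the next gene on the other side, had 5.36 and 2.44 CPM, within the 1.28 to 8.87 CPM of the rest.

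Further subunits split in the same libraries. Hcfc1 and Ogt, a host cell factor and the O-GlcNAc transferase of the NSL complex, had 41.1 and 36.9 CPM in HFD 4 and 45.3 and 58.9 CPM in HFD 8, below the 173 and 75.8 CPM at which the other 14 libraries started. Msl3l2, a relative of Msl3 by name, had 136 CPM in HFD 4 and 72.2 CPM in HFD 8, against 2.96 to 20.7 CPM in the other 14. Msl3 had its lowest value in HFD 4. Reads that aligned to both copies would have been counted in neither, and the values of Msl3 and Msl3l2 are uncertain to that extent. How alike the 2 sequences are was not examined. The log2 fold change of Msl3l2 between the diets was 1.59 (edgeR adjusted p = 0.437), and -0.31 without HFD 4 and HFD 8. Phf20l1, a paralog of Phf20, averaged 57.2 CPM (SD 20.5) in HFD and 53.0 CPM (SD 9.93) in CD, a log2 fold change of 0.11, and of 0.35 without HFD 4 and HFD 8.

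Other enzymes and readers of histone acetylation were counted by list, and 0 genes of any list passed the diet comparison. Of 26 tested genes of the other MYST acetyltransferases and their complexes, 12 log2 fold changes were positive and 14 were negative (median -0.12, and -0.067 without HFD 4 and HFD 8). Their 3 most abundant were Morf4l1, a chromodomain protein related to MSL3, at 318 CPM (SD 258) in HFD and 175 CPM (SD 34.1) in CD, Morf4l2 at 214 CPM (SD 98.8) in HFD and 242 CPM (SD 78.0) in CD, and Ep400 at 188 CPM (SD 64.0) in HFD and 171 CPM (SD 31.4) in CD. The log2 fold change of Morf4l2 was -0.17 and that of Ep400 0.14, and without HFD 4 and HFD 8 they turned to 0.12 and -0.096. Morf4l1 had 793 CPM in HFD 4 and 666 CPM in HFD 8, against at most 240 CPM elsewhere, and its log2 fold change was 0.86 over all libraries and 0.062 without them. In this list 9 of 26 genes had both libraries above the other 14 and 6 had both below, where 21.8% and 22.6% of all genes did. Kat7, another MYST enzyme, had 117 CPM in HFD 4 and 196 CPM in HFD 8, against 58.9 to 103 CPM elsewhere. The MYST enzymes Kat5, Kat6a and Kat6b did not share this. Kat5 had 8.93 and 39.0 CPM in HFD 4 and HFD 8, against 19.6 to 45.0 CPM elsewhere. Kat6a had 33.3 and 121 CPM, against 109 to 154 CPM, and Kat6b 89.3 and 33.8 CPM, against 82.4 to 116 CPM.

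Of 15 other acetyltransferase genes, 7 were positive and 8 negative, with a median of -0.011 (0.030 without HFD 4 and HFD 8). Among the 15, 2 had both libraries above and 4 both below the other 14, beside 21.8% and 22.6% of all genes. Ncoa2, Ep300 and Crebbp, the 3 most abundant, were lowest in HFD 4 and HFD 8. Ep300 averaged 195 CPM (SD 50.6) in HFD and 246 CPM (SD 12.5) in CD, a log2 fold change of -0.33, and of -0.16 without HFD 4 and HFD 8. The deacetylases had 7 positive and 9 negative values over 16 tested genes, with a median of -0.10, also without HFD 4 and HFD 8. The most abundant was the tubulin deacetylase Hdac6, at 272 CPM (SD 155) in HFD and 385 CPM (SD 97.9) in CD, followed by Hdac7 and Hdac2. The log2 fold change of Hdac6 was -0.50, and -0.18 without HFD 4 and HFD 8. Sirt1, which removes acetyl groups from H4K16, averaged 20.1 CPM (SD 6.85) in HFD and 19.6 CPM (SD 5.41) in CD, a log2 fold change of 0.041, and of 0.22 without HFD 4 and HFD 8. Sirt2, of the same list, averaged 57.0 CPM (SD 24.1) in HFD and 51.1 CPM (SD 9.55) in CD. It had 63.7 CPM in HFD 4 and 107 CPM in HFD 8, against 31.0 to 67.5 CPM elsewhere. The log2 fold change of Sirt2 was 0.16, and -0.090 without HFD 4 and HFD 8.

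The H3K4 methyltransferases and their partners, which share Wdr5, had 5 positive and 11 negative values over 16 genes, with a median of -0.17, and -0.052 without HFD 4 and HFD 8. Of these, 2 genes had both libraries above the other 14, Ash2l and Dpy30, and 8 had both below, beside 21.8% and 22.6% of all genes. Ash2l, Dpy30 and Rbbp5 encode parts of the core module that holds WDR5. Rbbp5 had 8.93 CPM in HFD 4 and 24.1 CPM in HFD 8, against 19.3 to 52.1 CPM elsewhere. Wdr5 itself was below the other 14 in both. Ash2l had 96.4 CPM in HFD 4 and 136 CPM in HFD 8, against 41.6 to 73.5 CPM elsewhere, and Dpy30 262 and 140 CPM, against 46.2 to 121 CPM. Kmt2c, the most abundant of the list, had 131 and 121 CPM there, against 359 to 542 CPM elsewhere. Genes of histone replacement in spermatids had 14 positive and 3 negative values over 17 tested, with a median of 1.15, and -0.055 without HFD 4 and HFD 8. This list shares Prm1, Prm2, Tnp1 and Tnp2 with the late spermatid markers. Brdt, the testis reader of acetylated H4, had 295 CPM in HFD 4 and 244 CPM in HFD 8, against 13.4 to 78.6 CPM elsewhere.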

How the data were processed

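The authors deposited a single table of unnormalised read counts by gene symbol, each column a library. Per the submitters' processing notes, STAR, HTSeq 1.0.0, DESeq2 1.0.19 and the build mm10 are named with no role. The 5 summary rows stayed out of library sizes. Columns were matched to libraries by title. Diets were compared with edgeR 4.0.16 (R 4.3.3; quasi-likelihood F-test, robust, TMM, default filter by diet, diet alone), adjusted by Benjamini-Hochberg over 13149 genes; DESeq2 1.42.0 and limma 3.58.1 were alternatives. The fit was tested on simulated data. Log2 CPM used a prior count of 2, and permutation tests were two-sided with 100000 resamples. The 56 pairs of libraries of 1 diet differed beyond sampling noise (chi-square 12.7 to 172 per degree of freedom). Named genes were the 10 members, the most abundant 3 of a list, neighbours and the 5 genes most like Kat8. Hcfc1, Ogt, Phf20l1, Msl3l2, Kat5, Kat6a, Kat6b, Kat7, Sirt1, Ash2l, Dpy30, Rbbp5, Brdt and the Sertoli markers were named after their values were seen. The same holds for Prm1, Prm2, Cst8, Defb20, Gpx5, Spag11b and Sirt2. Members and lists were chosen with earlier results of these data known.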

Additional observations from a re-analysis of the deposited data

Results flagged for a closer look

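Kansl1 had 131 CPM in CD 8, far from the 105 CPM of the next highest CD library, a gap of 0.551 of the range of the 8 CD libraries. Of 20 groups of 8 libraries examined, 2 for each of the 10 genes, this was the 1 in which a single library stood that far out, and chance alone puts about 1 in 20 groups there.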

How the results depend on the processing

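With edgeR, 0 genes passed under every alternative run, and with DESeq2 1 gene passed; 0 partners passed under any. Leaving out single libraries gave 0 to 0 genes. With limma-voom and quality weights the log2 fold change turned sign in Msl1 (-0.053), Kansl1 (0.031), Kansl3 (0.090), Phf20 (0.015) and Wdr5 (0.072). Without HFD 4 and HFD 8 it turned in Msl1 (-0.11), Kansl1 (0.070), Phf20 (0.039) and Wdr5 (0.093). Msl2 ranged from -0.0026 without HFD 5 to 0.18 without CD 4, and Kat8 from 0.82 without HFD 4 to 1.24 without HFD 7, with 0.59 under limma-voom. The cause was not tested.

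With the title numbers as a replicate block, 0 genes and 0 partners passed, and Kat8 had a log2 fold change of 0.91. Correlations of same-numbered libraries ran from -0.395 to 0.605, and 2 of 8 HFD libraries were closest to their own number. Such correlations cannot show whether the numbers pair the libraries.

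Of the 10 relations with late spermatid markers, 0 passed, and leaving out single libraries gave 0 to 1. With meiotic markers 1 passed, and r turned in Kansl1 (-0.21) and Kansl2 (-0.068). With single libraries left out r turned in Msl1 (-0.21 to 0.26), Msl3 (-0.15 to 0.20), Kansl1 (-0.063 to 0.41), Kansl2 (-0.021 to 0.30) and Mcrs1 (-0.37 to 0.071). By CPM not divided by length, Kansl1 came after Msl1 and Kat8 moved to rank 6.

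Depth limits Kansl2, with 7 to 81 reads in a library, and Wdr5, with 3 to 146.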
